A study of Caenorhabditis elegans with 15 samples.

Results

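The TOR and AMPK nutrient sensing genes of Caenorhabditis elegans described here were chosen by name, with earlier results of these data known. They are 10 of the 46906 genes in the expression table. The TOR arm holds 7 of them, let-363, daf-15, rict-1, rsks-1, raga-1, ragc-1 and rheb-1, and the AMPK arm holds 3, aak-1, aak-2 and par-4. All 10 were expressed in every library, at 11.8 FPKM or more, and all were among the 13743 genes that passed the filter on low values. FPKM, the unit of the table, corrects a gene's fragment count for the gene's length and the library's depth.

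RNA was taken from whole wild-type N2 worms on day 12 of adulthood. The study asked how the transcriptome differed between aged animals fed an extract and those given the solvent alone. From the L4 larval stage worms received extract of C. chinensis seeds or E. ulmoides bark, each at 30 µg/mL, or solvent alone. The solvent was DMSO, at 0.05% in all 3 groups, and each group had 5 libraries. The group with solvent alone is called DMSO below. Every group was fed E. coli OP50 at 22 °C on agar with carbenicillin and with 100 µM FUdR, a drug that blocks the production of offspring. Each tube pooled about 3000 to 4000 worms, so a value is a mean over many animals and over all of their tissues.

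TOR is a protein kinase that promotes growth and protein synthesis when nutrients are plentiful, and AMPK is a protein kinase that is switched on when cellular energy runs low. The Rag and Rheb GTPases report amino acid and growth factor supply to TOR complex 1, and TOR complex 2 acts on other kinases of metabolism. In worms, lowered TOR signalling and raised AMPK activity are both known to lengthen life, and these proteins are controlled to a great extent by phosphorylation, which RNA levels do not report.

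The libraries held 37920765 to 82839505 fragments with DMSO, 37963794 to 81833288 with C. chinensis and 39567765 to 87238546 with E. ulmoides. The members had between 1214 fragments (aak-2, E. ulmoides replicate 5) and 19851 fragments (rsks-1, C. chinensis replicate 4) in a library. Tissue markers moved with the groups. The summed level of 10 body wall muscle markers was 186 to 243 FPKM with DMSO, 372 to 548 with C. chinensis and 217 to 261 with E. ulmoides, and that of 10 neuronal markers was 424 to 454, 574 to 667 and 407 to 459. For 10 intestinal markers the sums were 508 to 834, 1746 to 2668 and 585 to 868 FPKM, and for 10 germline markers they were 2007 to 2071, 1442 to 1770 and 1768 to 2085. In the C. chinensis comparison with DMSO, 10 of 10 muscle, 8 of 9 tested neuronal and 8 of 10 intestinal markers were higher, and 10 of 10 germline and 9 of 10 oocyte markers lower, at an adjusted p under 0.05, where 30.2% of all tested genes were higher and 37.2% lower. The oocyte sum went the other way, with 2871 to 3130 FPKM with DMSO, 3093 to 3470 with C. chinensis and 2730 to 3261 with E. ulmoides, and perm-2 was the oocyte marker that was higher and erm-1 the intestinal marker that was lower. Of 10 hypodermal markers, 5 stayed under 1 FPKM with DMSO, and 3 of the 5 tested were higher and 1 lower. The part of tissue composition in the results below was not tested, and in whole worms fewer cells of a type and less RNA per cell cannot be told apart.

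In the DMSO libraries the levels spanned from 14.7 ± 0.391 FPKM (mean and SD, n = 5) for aak-2 to 260 ± 7.31 for ragc-1. The order from high to low was ragc-1, raga-1 (98.6 ± 1.63), rsks-1 (70.8 ± 3.56), aak-1 (68.1 ± 2.68), rheb-1 (50.4 ± 1.495), par-4 (50.0 ± 4.52), rict-1 (41.6 ± 2.66), daf-15 (32.9 ± 2.07), let-363 (25.09 ± 2.97) and aak-2. The neighbours rsks-1 and aak-1 overlapped in range, and so did rheb-1 and par-4, whereas every other pair of neighbours in this order was separate. The small Rag GTPases therefore had the highest transcript levels per length, and the kinases let-363 and aak-2 had the lowest. All members stood above the median of the tested genes, which was 11.6 FPKM with DMSO. The level of ragc-1 rests on the length used to make its FPKM, 700 bases, where the Ensembl annotation gives exons of 1101 bases in union. With the annotated length its DMSO level would be 165 FPKM, still the highest of the 10. The lengths used for aak-1 (1960 bases, 2337 annotated) and rict-1 (4193 bases, 5023 annotated) were also shorter. With annotated lengths their DMSO means would be 57.1 and 34.7 FPKM, at the same places in the order. The overlaps and separations of neighbours given above hold for the lengths used and could differ with annotated ones.

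**Figure D1:**
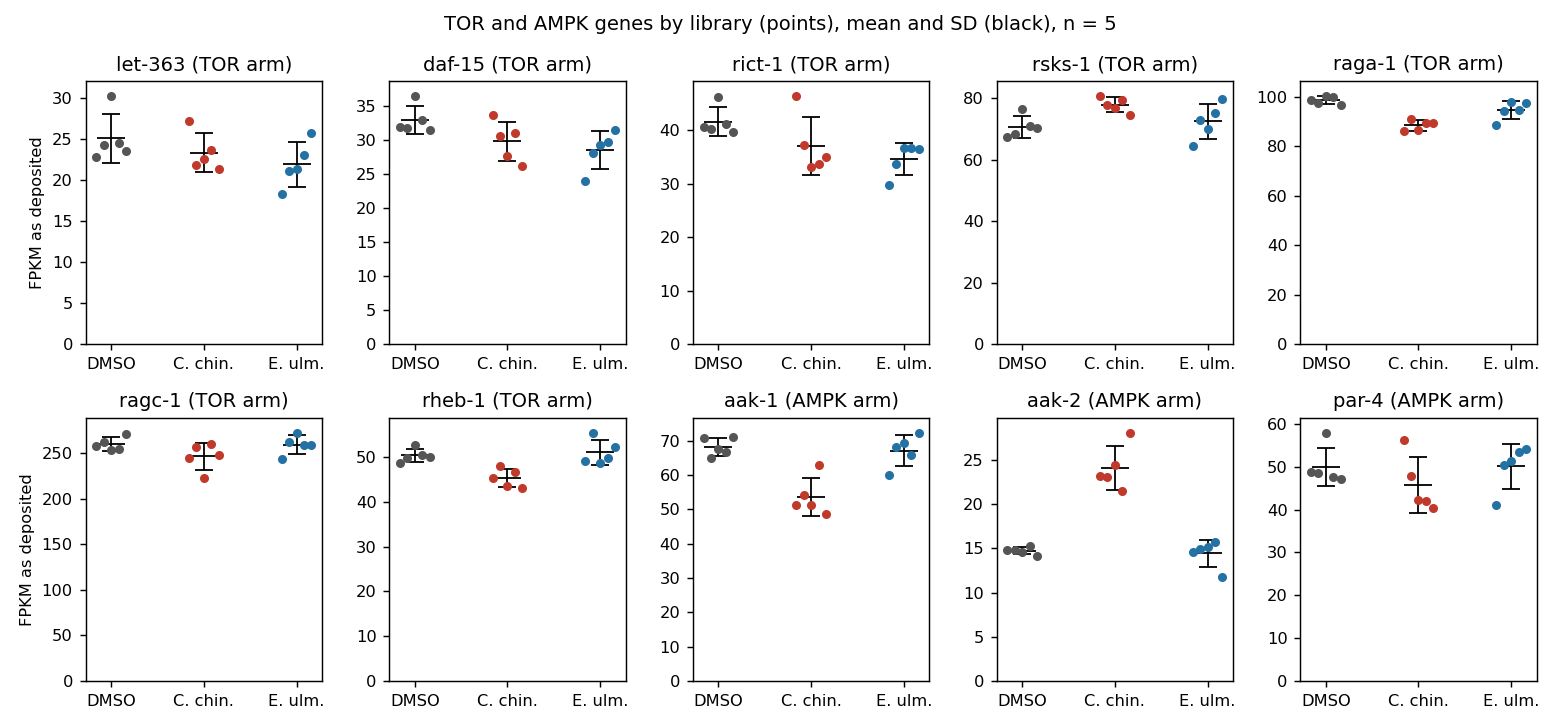
FPKM of the 10 genes (vertical axes from 0) in each of the 15 libraries, with points for libraries in replicate order and the mean and SD of 5 libraries in black. The C. chinensis points of aak-2 lie at 21.4 to 28.1 FPKM, above all DMSO points at 14.2 to 15.2, and the C. chinensis points of aak-1 lie at 48.7 to 62.8, below all DMSO points at 64.8 to 71.1.

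The catalytic subunits of AMPK moved in opposite directions with C. chinensis. The transcript of aak-2, the α2 subunit, rose, that of aak-1, the α1 subunit, fell, and the upstream kinase par-4 was lower than with DMSO. In worms aak-2 is the subunit required for lifespan extension by several energy-related treatments.

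The aak-2 gene lies on chromosome X from 16796087 to 16803398 on the plus strand (WBcel235). It measured 14.8, 14.8, 14.6, 15.2 and 14.2 FPKM in DMSO replicates 1 to 5, 23.2, 23.1, 24.4, 21.4 and 28.1 with C. chinensis, against 14.6, 14.9, 15.1, 15.7 and 11.8 with E. ulmoides. All C. chinensis libraries were above all others, and the DMSO and E. ulmoides libraries overlapped. After scaling between libraries the C. chinensis group was 0.53 log2 units above DMSO (SE 0.07, 1.44-fold, limma adjusted p = 1.19e-05), where the median tested gene was 0.09 log2 units below it. Other scalings gave an aak-2 difference of 0.68 (no further scaling), 0.58 (median of ratios) and 0.52 (quantile normalization), so it was higher under all 4.

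The aak-1 gene lies on chromosome III from 8756990 to 8761090 on the minus strand. Its FPKM were 70.6, 64.8, 67.4, 66.6 and 71.1 with DMSO, 51.2, 54.1, 51.2, 62.8 and 48.7 with C. chinensis, against 60.1, 68.2, 69.2, 65.6 and 72.3 with E. ulmoides. Every C. chinensis library was below every DMSO library, while the E. ulmoides range reached from below to above the DMSO range. The scaled difference of aak-1 between C. chinensis and DMSO was -0.51 log2 units (SE 0.08, 0.705-fold, adjusted p = 5.91e-05), and it stayed lower at -0.35 (no further scaling), -0.46 (median of ratios) and -0.29 (quantile normalization). The decrease stayed short of 1.5-fold in each of these.

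The ratio of aak-2 to aak-1 within a library does not depend on scaling between libraries. It was 0.199 to 0.229 with DMSO, 0.341 to 0.577 with C. chinensis and 0.163 to 0.243 with E. ulmoides. The C. chinensis libraries thus carried more aak-2 transcript per aak-1 transcript than any other library. The ratio was 2.04-fold higher than with DMSO (1.03 log2 units, SE 0.13, exact two-sided permutation p = 0.0079, adjusted over 9 ratio tests p = 0.0238) and 2.06-fold higher than with E. ulmoides (1.04 log2 units, SE 0.16, exact permutation p = 0.0079, adjusted p = 0.0238). The value 0.0079 is the smallest that 5 libraries against 5 allow. Between E. ulmoides and DMSO the ratio differed by -0.01 log2 units (SE 0.11, exact permutation p = 0.976).

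The par-4 gene encodes the worm LKB1, a kinase that phosphorylates and activates AMPK, and lies on chromosome V from 18098687 to 18106405. Its FPKM were 48.7, 48.5, 58.0, 47.6 and 47.0 with DMSO, 56.3, 47.8, 42.2, 41.9 and 40.4 with C. chinensis, against 41.2, 50.5, 51.2, 53.5 and 54.2 with E. ulmoides. The groups overlapped widely, and C. chinensis replicate 1 stood above all DMSO libraries but 1. The scaled difference from DMSO was -0.29 log2 units (SE 0.09, adjusted p = 0.0119), and this passed with median-of-ratios scaling (-0.24) but not with no further scaling (-0.13, adjusted p = 0.232) or quantile normalization (-0.10, adjusted p = 0.316).

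**Figure D2:**
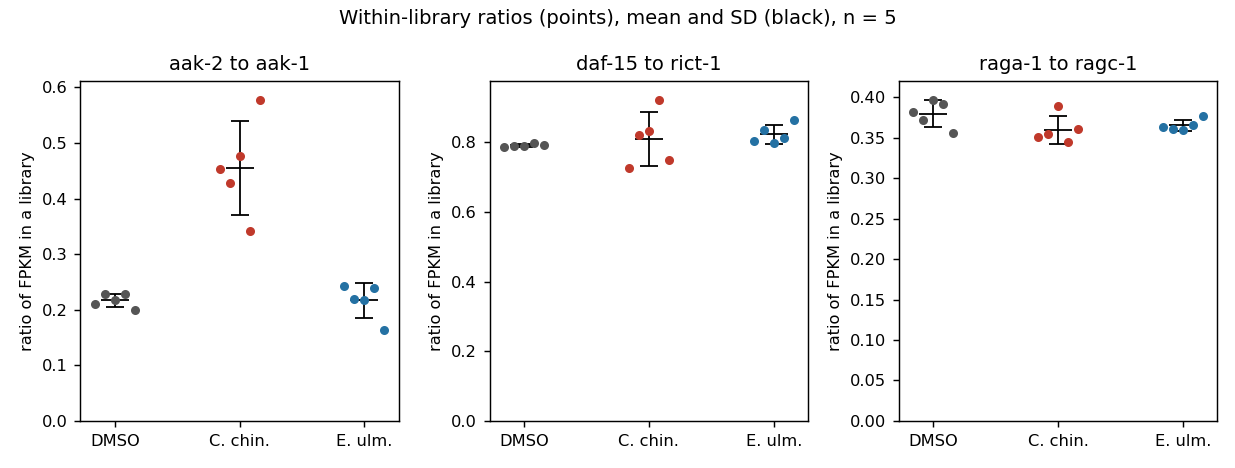
Ratio of the FPKM of paired genes within each library (vertical axes from 0), with points for libraries and the mean and SD of 5 libraries in black. The aak-2 to aak-1 ratio is 0.341 or more in every C. chinensis library and 0.243 or less in every other library, whereas the raga-1 to ragc-1 ratios overlap between the groups.

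In the TOR arm, 6 of the 7 genes were lower with C. chinensis than with DMSO by 0.24 to 0.33 log2 units, where 37.2% of all tested genes were lower, and rsks-1 was not. With no further scaling raga-1 and rheb-1 were the genes of the arm that passed as lower, where 22.9% of all tested genes did. The TOR kinase let-363 and the subunits that define its complexes, daf-15 and rict-1, are long transcripts. The GTPases raga-1, ragc-1 and rheb-1, which report nutrient supply to the kinase, are short ones.

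The let-363 gene, on chromosome I from 5245743 to 5263424, encodes the TOR kinase itself. It measured 22.8, 24.3, 30.3, 24.5 and 23.6 FPKM with DMSO, 27.3, 21.8, 22.5, 23.7 and 21.3 with C. chinensis, against 18.3, 21.1, 21.3, 23.0 and 25.8 with E. ulmoides. The 3 groups overlapped, with DMSO replicate 3 and C. chinensis replicate 1 high and E. ulmoides replicate 1 low. The scaled C. chinensis difference from DMSO was -0.26 log2 units (SE 0.10, adjusted p = 0.0262). It did not pass without DMSO replicate 3 (-0.20, adjusted p = 0.0813), without C. chinensis replicate 2 (-0.24, adjusted p = 0.0532), with no further scaling (-0.10, adjusted p = 0.374) or with median-of-ratios scaling (-0.21, adjusted p = 0.0644).

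The daf-15 gene, on chromosome IV from 9386208 to 9394979, encodes the worm Raptor, the subunit that defines TOR complex 1. Its FPKM were 31.9, 31.7, 36.5, 32.9 and 31.5 with DMSO, 33.6, 30.6, 27.6, 31.0 and 26.3 with C. chinensis, against 23.9, 28.1, 29.3, 29.8 and 31.4 with E. ulmoides. On the FPKM scale C. chinensis overlapped DMSO, and E. ulmoides lay just below it. After scaling, C. chinensis was 0.30 log2 units below DMSO with no overlap (log2 fold change -0.30, SE 0.09, adjusted p = 0.00528), and with no further scaling the difference was -0.14 (adjusted p = 0.124).

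The rict-1 gene, on chromosome II from 13098239 to 13116810, encodes the worm Rictor, which defines TOR complex 2, a regulator of fat storage and growth. Its FPKM were 40.6, 40.2, 46.3, 41.3 and 39.8 with DMSO, 46.4, 37.3, 33.2, 33.7 and 35.0 with C. chinensis, against 29.8, 33.7, 36.7, 36.6 and 36.4 with E. ulmoides. C. chinensis replicate 1 was the only C. chinensis library within the DMSO range or above it. The scaled difference from DMSO was -0.33 log2 units (SE 0.09, adjusted p = 0.00308), and it did not pass with no further scaling (-0.17, adjusted p = 0.0946) or quantile normalization (-0.16, adjusted p = 0.0836).

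The ratio of daf-15 to rict-1, which sets the subunits of both complexes against each other, was 0.786 to 0.798 with DMSO and 0.799 to 0.864 with E. ulmoides. These ranges touched without overlapping, and the ratio was 1.04-fold higher with E. ulmoides (0.06 log2 units, SE 0.02, exact two-sided permutation p = 0.0079, adjusted over 9 ratio tests p = 0.0238). With C. chinensis it spread from 0.725 to 0.920, on both sides of DMSO (0.03 log2 units, SE 0.06, exact permutation p = 0.698, adjusted p = 0.786).

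The rsks-1 gene, on chromosome III from 11245120 to 11252281, encodes the S6 kinase, which acts below TOR complex 1 on translation. Its FPKM were 67.5, 68.4, 76.6, 71.1 and 70.2 with DMSO, 80.8, 78.0, 76.8, 79.5 and 74.7 with C. chinensis, against 64.5, 72.9, 70.1, 75.1 and 79.9 with E. ulmoides. On the FPKM scale all C. chinensis libraries were above the DMSO mean, and DMSO replicate 3 reached into their range. The scaled difference from DMSO was -0.02 log2 units (SE 0.07, 95% interval -0.16 to 0.12, adjusted p = 0.814), but 0.030 with median-of-ratios scaling (adjusted p = 0.702), 0.14 with no further scaling (adjusted p = 0.0352) and 0.20 with quantile normalization (adjusted p = 0.00153), so the direction of rsks-1 depended on the scaling.

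The Rag GTPases raga-1 and ragc-1 pair with each other and bring TOR complex 1 to the lysosome when amino acids are present. The raga-1 gene, on chromosome II from 11301359 to 11302776, measured 98.6, 97.5, 100.4, 100.1 and 96.6 FPKM with DMSO, 86.04, 91.3, 86.6, 89.5 and 89.6 with C. chinensis, against 88.6, 94.4, 97.98, 94.9 and 97.5 with E. ulmoides. All C. chinensis libraries were below all DMSO libraries, and E. ulmoides overlapped both. The scaled C. chinensis difference of raga-1 from DMSO was -0.31 log2 units (SE 0.05, 0.805-fold, adjusted p = 6.83e-05), and it passed with median-of-ratios scaling (-0.26), no further scaling (-0.15) and quantile normalization (-0.086) too.

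The partner ragc-1, on chromosome IV from 11603613 to 11604933, measured 258, 262, 253, 255 and 272 FPKM with DMSO, 245, 257, 222, 260 and 248 with C. chinensis, against 244, 262, 273, 259 and 259 with E. ulmoides. The FPKM of the groups overlapped. The scaled ragc-1 difference was -0.24 log2 units (SE 0.06, adjusted p = 0.00378) and did not pass with no further scaling (-0.08, adjusted p = 0.150), quantile normalization (-0.11, adjusted p = 0.0817) or when genes with a mean under 5 FPKM were left out (-0.085, adjusted p = 0.159). The ratio of raga-1 to ragc-1 was 0.356 to 0.396 with DMSO, 0.344 to 0.389 with C. chinensis and 0.359 to 0.377 with E. ulmoides. The difference of this ratio from DMSO was -0.08 log2 units with C. chinensis (SE 0.04, exact permutation p = 0.103, adjusted over 9 ratio tests p = 0.200) and -0.05 with E. ulmoides (SE 0.03, exact permutation p = 0.111, adjusted p = 0.200).

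The rheb-1 gene, on chromosome III from 9454163 to 9456030, encodes the Rheb GTPase, which activates TOR complex 1 directly. Its FPKM were 48.7, 49.9, 52.8, 50.5 and 50.1 with DMSO, 45.3, 48.0, 43.6, 46.6 and 43.0 with C. chinensis, against 49.1, 55.5, 48.6, 49.7 and 52.4 with E. ulmoides. The C. chinensis libraries were below all others, and DMSO and E. ulmoides overlapped. The scaled C. chinensis difference of rheb-1 from DMSO was -0.31 log2 units (SE 0.06, 0.807-fold, adjusted p = 0.000353), and it passed in the same way under the other 3 scalings (-0.26, -0.15 and -0.11).

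Over the 10 genes, C. chinensis against DMSO gave 0 calls, where a call needed an adjusted p below 0.05 together with a fold past 1.5 in either direction, a rule that 20.4% of all tested genes passed. The count was also 0 with voom weights on the recovered fragments and with an exact Wilcoxon rank-sum test, and 9 of the 10 had an unadjusted limma p under 0.05, as did 70.1% of all tested genes. By adjusted p alone, 1 gene (aak-2) was higher, where 30.2% of all tested genes were higher, and 8 were lower, where 37.2% were lower. The Wilcoxon test gave 1 higher and 5 lower, since let-363, rict-1 (adjusted p = 0.0510 for both) and par-4 (adjusted p = 0.0829) missed the threshold. The median of the 7 TOR genes was -0.30 log2 units and that of the 3 AMPK genes -0.29, against -0.09 for all tested genes. The AMPK median is the value of par-4, with aak-1 below and aak-2 above it. Within a library, the mean log2(FPKM + 0.5) of the TOR genes exceeded that of the AMPK genes by 0.659 to 0.759 with DMSO. This excess was 0.510 to 0.592 with C. chinensis and 0.603 to 0.751 with E. ulmoides, and it was not tested. Its 3 AMPK genes differed in direction with C. chinensis, with aak-2 higher (0.53 log2 units) and aak-1 (-0.51) and par-4 (-0.29) lower. A lower excess is therefore not a shift of the AMPK arm as a whole. The median log2 fold change of all tested genes moved from -0.09 to 0.06 with no further scaling, where 36.0% of all tested genes were higher and 22.9% lower, and by adjusted p alone the count of lower members was then 3 (raga-1, rheb-1 and aak-1) and that of higher members 2 (aak-2 and rsks-1). After scaling, 6 of the 10 genes had separate ranges between C. chinensis and DMSO, namely aak-2 above and daf-15, raga-1, ragc-1, rheb-1 and aak-1 below, where 23.1% of all tested genes were separate and higher and 27.03% separate and lower.

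**Figure D3:**
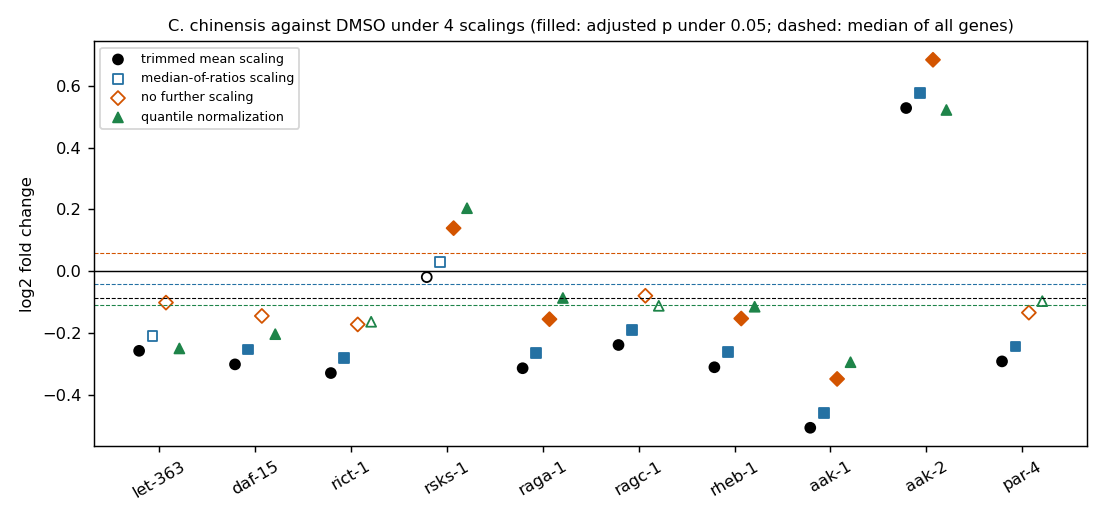
Log2 fold change of the 10 genes between C. chinensis and DMSO (vertical axis) under 4 ways of scaling the libraries, with filled symbols at an adjusted p under 0.05 and dashed lines at the median of all tested genes under each scaling. The symbols of aak-2 are filled and above 0 and those of raga-1, rheb-1 and aak-1 filled and below 0 under all 4, whereas rsks-1 is at -0.02 in the main scaling and at 0.14 and 0.20, filled, with no further scaling and quantile normalization.

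With E. ulmoides against DMSO, which uses the same DMSO libraries, no member passed. The log2 fold changes lay between -0.12 (rict-1) and 0.18 (rsks-1), with the lowest adjusted p at 0.113. Calls with the fold limit were 0 of 10, where 1.22% of all tested genes were called. By adjusted p alone 0 of 10 were higher and 0 lower, where 4.68% of all tested genes were higher and 0.335% lower. The same counts of 0 came from voom, and the Wilcoxon test called none of all 13743 genes here, so its 0 says nothing of the members. An unadjusted limma p under 0.05 was reached by rsks-1, rheb-1 (log2 fold change 0.17) and ragc-1 (0.14), 3 of the 10, and by 23.3% of all tested genes. The 95% intervals of the 10 log2 fold changes ran from -0.30 at the lowest bound to 0.35 at the highest, so a 1.5-fold change of any member lay outside them. The aak-2 interval was -0.04 to 0.27 around 0.11, and that of aak-1 was -0.05 to 0.30 around 0.13. With no further scaling raga-1 (-0.060), ragc-1 (-0.0055), aak-1 (-0.023) and aak-2 (-0.034) turned from above to below 0. On the FPKM scale daf-15 and rict-1 had all E. ulmoides libraries below all DMSO libraries, but with scaled differences of -0.06 (adjusted p = 0.714) and -0.12 (adjusted p = 0.449).

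**Figure D4:**
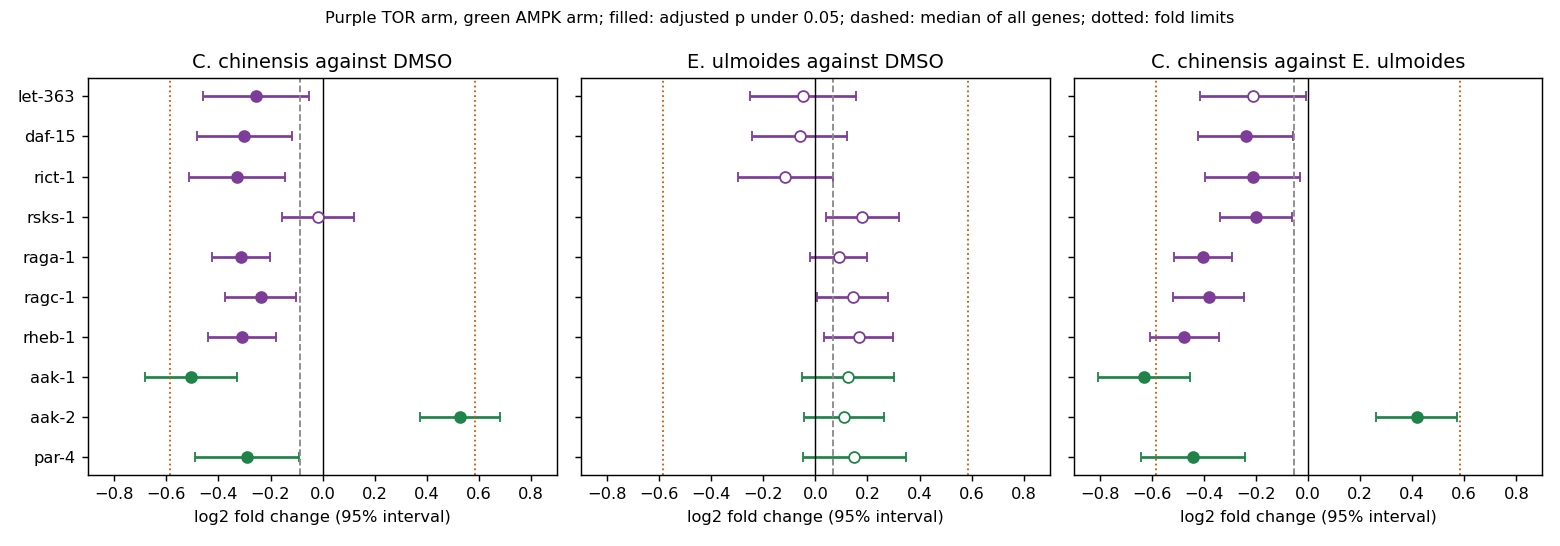
Log2 fold changes of the 10 genes with 95% intervals (horizontal axis) in the 3 comparisons, TOR arm in purple and AMPK arm in green, filled at an adjusted p under 0.05. In the middle panel, E. ulmoides against DMSO, no symbol is filled and all intervals lie between the dotted fold limits, and in the outer panels aak-2 is the filled symbol above 0. With no further scaling let-363, daf-15, rict-1 and rsks-1 turn from below to above 0 in the right panel, rsks-1 does so in the left panel, and raga-1, ragc-1, aak-1 and aak-2 turn below 0 in the middle panel.

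The extracts were then compared with each other. Of the 10 genes, 1 was called, aak-1, which had less transcript after C. chinensis (with E. ulmoides as the reference, -0.63 log2 units, SE 0.08, 0.646-fold, adjusted p = 5.16e-06), where 22.7% of all tested genes were called. This call ended with median-of-ratios scaling (-0.54), quantile normalization (-0.31) and no further scaling (-0.32), and without C. chinensis replicate 3 (-0.53) or replicate 5 (-0.54), as the fold then stayed within the limit while the adjusted p passed. It also ended when genes with a mean under 5 FPKM were left out (-0.39), and under that filter (0.65) and with no further scaling (0.72) aak-2 was called higher instead. By adjusted p alone, 1 gene was higher, aak-2 (0.42 log2 units, SE 0.07, adjusted p = 8.45e-05), where 29.4% of all tested genes were, and 8 were lower, where 37.8% were.

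The lower genes of this comparison were aak-1, rheb-1 (-0.48 log2 units, adjusted p = 4.76e-06), par-4 (-0.44, adjusted p = 0.000523), raga-1 (-0.40, adjusted p = 4.54e-06), ragc-1 (-0.38, adjusted p = 5.85e-05), daf-15 (-0.24, adjusted p = 0.0201), rict-1 (-0.21, adjusted p = 0.0387) and rsks-1 (-0.20, adjusted p = 0.0128). The last 3 of these did not hold under several alternatives. None of them passed with median-of-ratios scaling (-0.15, -0.12 and -0.11), with the Wilcoxon test, without C. chinensis replicate 3 (adjusted p = 0.165, 0.329 and 0.116) or without C. chinensis replicate 5 (adjusted p = 0.159, 0.208 and 0.0980). The daf-15 difference also missed without E. ulmoides replicate 5 (adjusted p = 0.0629), and that of rict-1 with the replicate block (adjusted p = 0.0798), with the 10 libraries compared alone (adjusted p = 0.0709), with no filter (adjusted p = 0.0704) and without C. chinensis replicate 4 or E. ulmoides replicate 2, 3, 4 or 5 (adjusted p = 0.0542 to 0.0933). The kinase let-363 missed the threshold at -0.21 (adjusted p = 0.0632). The median of all tested genes moved from -0.05 to 0.22 log2 units with no further scaling, and then let-363 (0.09), daf-15 (0.06), rict-1 (0.09) and rsks-1 (0.11) turned positive, none of them past the threshold. With quantile normalization rsks-1 was higher with C. chinensis (0.13, adjusted p = 0.0261) and rict-1 was at 0.043. Lower at an adjusted p under 0.05 with no further scaling were aak-1 (-0.32), rheb-1 (-0.17) and raga-1 (-0.09), and aak-2 was higher by 0.72. The AMPK subunits aak-1 and aak-2 and the GTPase rheb-1 were thus the members that differed between the extracts in the same direction at an adjusted p under 0.05 under all 4 scalings.

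The wider pathway was read from 48 further genes in 5 lists. The regulatory subunits and upstream partners of AMPK divided in both directions. Of 11 genes, 4 were higher and 5 lower with C. chinensis than with DMSO by adjusted p alone, where 30.2% of all tested genes were higher and 37.2% lower. The list's median was -0.05 log2 units against -0.09 for all tested genes, and with no further scaling 4 were higher and 2 lower, with a median of 0.11 against 0.06. With the fold limit 1 gene of the list was called higher in the main scaling and 2 under each of the others.

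The gene that changed most in that list was aakb-1, a β subunit that holds the AMPK complex together. It measured 6.75, 7.24, 7.74, 7.44 and 6.72 FPKM with DMSO, 13.8, 14.4, 16.6, 14.02 and 19.8 with C. chinensis, against 7.22, 6.86, 8.17, 7.75 and 5.82 with E. ulmoides. Every C. chinensis library was above every other library. The scaled aakb-1 difference from DMSO was 0.91 log2 units (SE 0.09, adjusted p = 7.72e-07), and it was called under all 4 scalings (0.76 to 1.07). The other β subunit, aakb-2, was at -0.05 (adjusted p = 0.525). The γ subunits ranged from -0.30 (aakg-5, adjusted p = 0.00311) to 0.31 (aakg-4, adjusted p = 0.00649). Among the partners of par-4, the MO25 gene mop-25.1 was higher (0.58, adjusted p = 2.88e-07) and mop-25.3 (-0.39, adjusted p = 0.000219) and the STRAD gene strd-1 (-0.36, adjusted p = 9.65e-05) were lower.

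Of 7 genes that act below AMPK, 2 were higher and 3 lower with C. chinensis than with DMSO, with a median of -0.11 log2 units, where 30.2% of all tested genes were higher and 37.2% lower. These became 3 higher and 1 lower with no further scaling, and the median 0.051. The SREBP gene sbp-1, a transcription factor for fat synthesis, measured 7.72, 10.3, 10.8, 9.52 and 8.01 FPKM with DMSO, 15.5, 14.6, 14.8, 13.7 and 18.1 with C. chinensis, against 8.13, 7.86, 7.26, 9.24 and 7.94 with E. ulmoides. The C. chinensis libraries were above all others. The sbp-1 difference was 0.55 log2 units from DMSO (SE 0.09, adjusted p = 5.52e-05), short of the fold limit, and 0.59 from E. ulmoides (adjusted p = 2.27e-05), past it. Against DMSO, 1 gene of this list was called higher with median-of-ratios scaling and with no further scaling, and 0 with quantile normalization. The acetyl-CoA carboxylase gene pod-2 was higher as well (0.36, adjusted p = 0.000661), and atgl-1, a triglyceride lipase, was lower (-0.47, adjusted p = 9.55e-06), both below the fold limit in size.

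Of 12 TOR complex partners and amino acid sensing regulators, 9 were lower and 1 higher with C. chinensis than with DMSO by adjusted p alone, with a median of -0.30 log2 units, where 37.2% of all tested genes were lower and 30.2% higher, and none was called with the fold limit. With no further scaling and with quantile normalization the lower genes of this list were 4, with medians of -0.15 and -0.10, where 22.9% and 37.5% of all tested genes were lower. The genes with the smallest p over the 3 comparisons were nprl-3 and npp-20, which belong to complexes that control the Rag GTPases. For nprl-3 the FPKM were 48.3, 46.3, 45.3, 49.9 and 47.9 with DMSO and 41.1, 39.9, 36.1, 40.6 and 34.1 with C. chinensis, and the ranges were separate (-0.47 log2 units, SE 0.07, adjusted p = 4.22e-05). For npp-20 they were 95.8, 94.8, 91.1, 95.9 and 94.7 with DMSO and 85.3, 82.8, 90.6, 85.9 and 82.4 with C. chinensis, again separate (-0.30, SE 0.05, adjusted p = 5.20e-05), but with quantile normalization npp-20 did not pass (-0.07, adjusted p = 0.115). The gene that was higher was sesn-1, a sestrin (0.45, adjusted p = 5.33e-05), and mlst-8, a subunit of both TOR complexes, was lower (-0.36, adjusted p = 0.000159).

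Of 9 genes in translation below TOR, 5 were lower and 1 higher with C. chinensis than with DMSO, with a median of -0.35 log2 units, where 37.2% of all tested genes were lower and 30.2% higher. These counts were 5 and 1 under all 4 scalings. The translation factor gene ife-1, one of the worm's eIF4E genes, measured 908, 869, 828, 878 and 930 FPKM with DMSO and 623, 755, 756, 712 and 631 with C. chinensis. The elongation factor 2 kinase efk-1, a target of AMPK and TOR signalling in mammals, measured 74.1, 68.2, 73.9, 77.2 and 77.1 with DMSO and 56.0, 58.0, 59.1, 62.3 and 51.6 with C. chinensis. Both had separate ranges, and their differences were -0.51 (SE 0.07, adjusted p = 1.09e-05) for ife-1 and -0.53 (SE 0.07, adjusted p = 1.29e-05) for efk-1. The ribosomal protein rps-6, which S6 kinase phosphorylates in other animals, measured 2859, 2719, 2497, 2658 and 2814 FPKM with DMSO, 2182, 2403, 2216, 2567 and 2507 with C. chinensis, against 3291, 3000, 2976, 2717 and 2827 with E. ulmoides. Its C. chinensis range overlapped DMSO and not E. ulmoides. The rps-6 difference of C. chinensis was -0.35 from DMSO (SE 0.08, adjusted p = 0.000612) and -0.63 from E. ulmoides (adjusted p = 2.07e-06), and all 3 genes, ife-1, efk-1 and rps-6, were called lower between the extracts. With no further scaling or quantile normalization none of these 3 calls held, and with median-of-ratios scaling that of ife-1 (-0.59) did, while every adjusted p stayed under 0.05. Of the other eIF4E genes, ife-3 (-0.43, adjusted p = 1.50e-05) and ife-5 (-0.41, adjusted p = 0.000215) were lower, ife-2 was higher (0.16, adjusted p = 0.0363), and ife-4 was at 0.11 (adjusted p = 0.352).

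Of 9 genes in autophagy, growth and transcription below TOR, 5 were higher and 2 lower with C. chinensis than with DMSO, 4 of them called, and the list's median was 0.49 log2 units. Among all tested genes 30.2% were higher, 37.2% lower and 20.4% called. With no further scaling 7 of the list were higher and with quantile normalization 6, and 0 were lower in either. With no further scaling 5 were called and with quantile normalization 3. The genes called in the main scaling were hlh-30, pkc-2, akt-2 and sgk-1. The hlh-30 gene encodes the worm TFEB, a transcription factor for lysosome and autophagy genes that TOR keeps out of the nucleus. It measured 26.9, 32.02, 32.3, 33.3 and 28.2 FPKM with DMSO, 56.5, 49.6, 53.2, 49.8 and 61.7 with C. chinensis, against 26.9, 27.8, 27.3, 29.7 and 27.3 with E. ulmoides (0.66 from DMSO, SE 0.07, adjusted p = 7.03e-07). The C. chinensis libraries were far above the other groups, which overlapped.

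The other genes of this list called in the main scaling encode AGC kinases, the class of kinase that TOR complex 2 phosphorylates in mammals. The Akt gene akt-2 measured 7.53 to 9.55 FPKM with DMSO, 12.9 to 16.4 with C. chinensis and 6.37 to 8.12 with E. ulmoides (0.67 from DMSO, SE 0.08, adjusted p = 3.90e-06). The serum and glucocorticoid inducible kinase sgk-1 measured 5.59 to 7.37, 10.2 to 15.8 and 5.23 to 8.12 FPKM (0.72, SE 0.13, adjusted p = 0.000124), and the protein kinase C gene pkc-2 measured 6.22 to 8.22, 12.97 to 17.0 and 6.40 to 8.004 (0.81, SE 0.09, adjusted p = 1.36e-06). All C. chinensis libraries were above all others for each of these kinases. With quantile normalization akt-2 (0.51) and sgk-1 (0.53) stayed past the adjusted p and fell short of the fold limit. The second Akt gene, akt-1, was lower instead (-0.26, adjusted p = 0.00371). The autophagy kinase unc-51 was higher (0.49, adjusted p = 1.84e-06) and its partner atg-13 was at -0.01 (adjusted p = 0.886).

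With E. ulmoides against DMSO, 2 of the 48 genes passed by adjusted p alone, rps-6 (0.28 log2 units, adjusted p = 0.0450) and hmgr-1, the HMG-CoA reductase gene (0.19, adjusted p = 0.0493), where 4.68% of all tested genes were higher, and neither was called with the fold limit. Neither passed with median-of-ratios scaling, no further scaling or quantile normalization. With no further scaling 1 gene in autophagy, growth and transcription passed as lower, where 0.640% of all tested genes did.

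**Figure D5:**
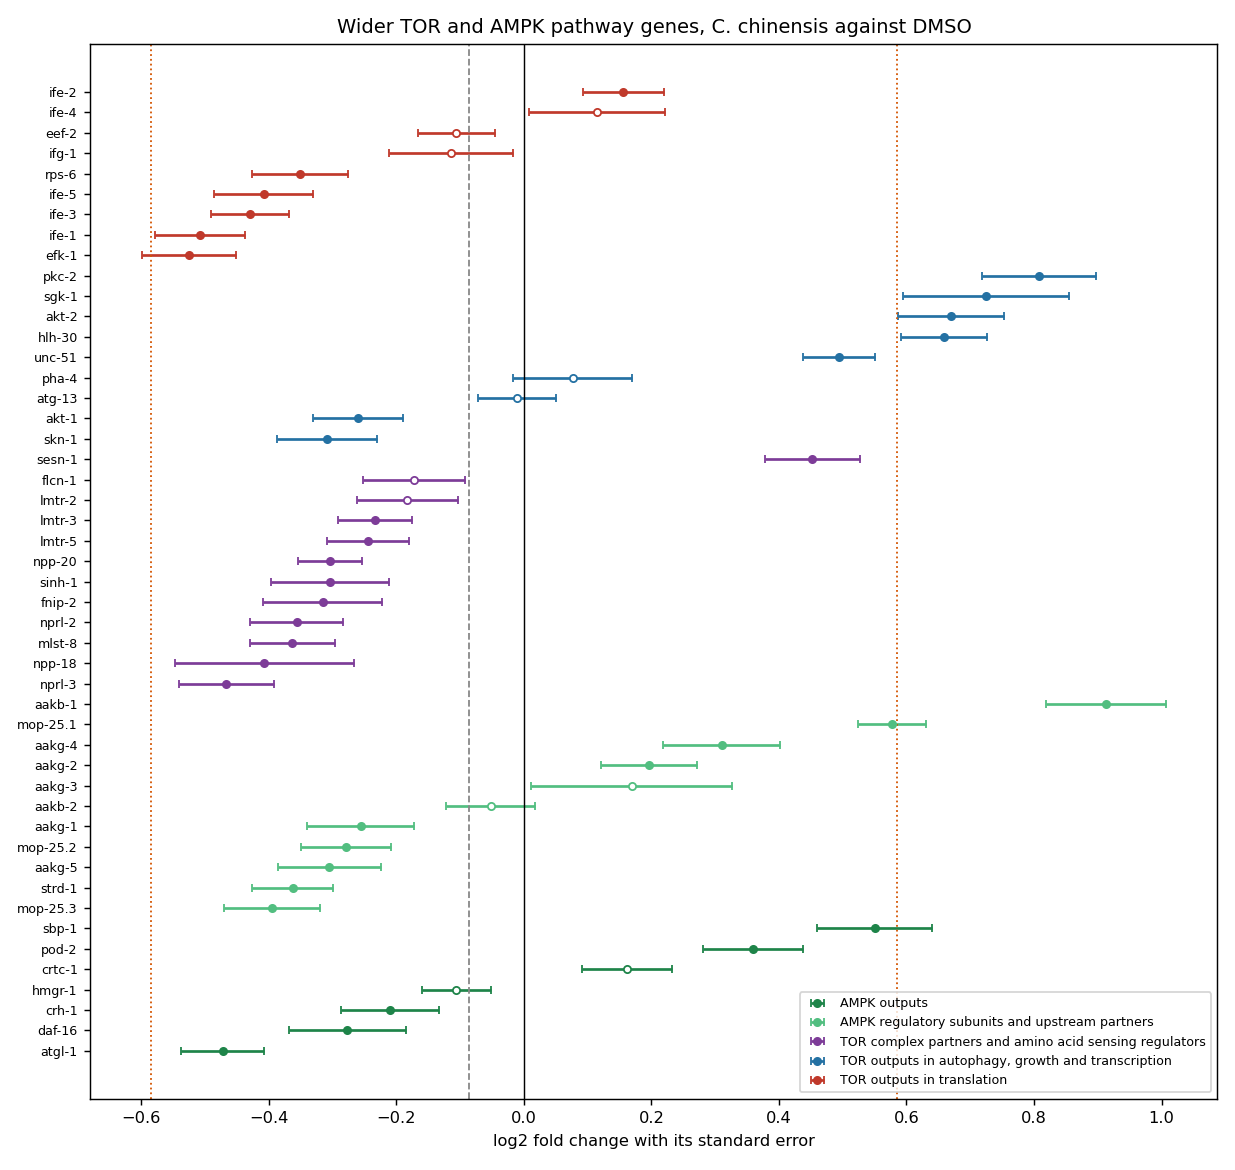
Log2 fold change of 48 further pathway genes between C. chinensis and DMSO with its standard error (horizontal axis), coloured by list and filled at an adjusted p under 0.05, with the median of all tested genes dashed and the fold limits dotted. The gene aakb-1 stands at 0.91, the TOR outputs pkc-2, sgk-1, akt-2 and hlh-30 lie at 0.66 to 0.81, and efk-1 and ife-1 lie at -0.53 and -0.51.

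Several members varied from library to library in the way that long transcripts did. Within a group, let-363 deviated from its group mean by 0.23 log2 units in DMSO replicate 3, 0.21 in C. chinensis replicate 1, -0.26 in E. ulmoides replicate 1 and 0.28 in E. ulmoides replicate 5. The median of 429 tested genes over 4 kb deviated in the same libraries by 0.12, 0.17, -0.21 and 0.16. Over the 15 libraries the deviations of let-363 correlated with those of daf-15 (r = 0.89), rsks-1 (0.87), par-4 (0.85) and rict-1 (0.78), and less with those of aak-1 (0.43), ragc-1 (0.25) and aak-2 (-0.58). Of these genes, par-4 (1867 bases), aak-1 (1960 bases) and aak-2 (2307 bases) are of similar length, and the part of length was not tested. The correlations are descriptions over points that share libraries. Without those 4 libraries, a set chosen after the deviations were seen, the count of lower members by adjusted p alone was again 8 in C. chinensis against DMSO and rose from 8 to 9 in the comparison of the extracts, with let-363 at -0.26 (adjusted p = 0.00857).

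The tested genes whose scaled log2 values were most alike let-363 over the 15 libraries were also long, ZK1067.2 (r = 0.98, length 7083 bases), rig-4 (r = 0.97, 7507 bases) and Y54E10A.11 (r = 0.97, 4537 bases). The genes most alike aak-2 were aakb-1 (r = 0.97, and 0.83 within groups), his-41 (r = 0.97, and 0.85 within groups) and C24A3.2 (r = 0.97, and 0.80 within groups). The likeness to aakb-1 pairs the catalytic α2 subunit with a β subunit. How much of it comes from the difference between C. chinensis and the other groups was not tested.

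Exons of 4 members overlap an exon of a gene on the opposite strand in the Ensembl annotation, and the library kit is not stated to mark strand. The overlaps were 107 bases of daf-15 with col-121, 37 bases of rict-1 with col-86, 100 bases of aak-1 with sma-2 and 78 bases of aak-2 with mec-4. The neighbours were low in comparison. All sma-2 fragments together came to at most 7.29% of those of aak-1 in any library, and sma-2 was higher with C. chinensis (0.44 log2 units, adjusted p = 0.00559) where aak-1 was lower. All mec-4 fragments came to at most 4.2% of those of aak-2, with mec-4 at 0.106 to 0.615 FPKM.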

How the data were processed

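The deposited values are FPKM in a table with a column for each library, and the library labels gave the groups. The authors aligned paired-end reads to WBcel235 with HISAT2 (version not given), and for their own tests used edgeR through DEBrowser on read counts. The counter and the annotation release are not given in the sources used here. Library totals were read from the steps of the 21-nucleotide piRNA genes. For each of the 26686 genes above 0, a whole gene length was then sought that made its FPKM whole fragments within 0.0001. Such a length was found for every gene. For a gene above 0 in few libraries it can be found by chance, so this is no check there. The members were above 0 in every library, and their counting error could be judged from the fragments. Of the table's genes 20220 were at 0 throughout.

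FPKM were scaled by trimmed means of M, unweighted (30% of M and 5% of A trimmed; factors 0.873 to 1.16) and log2(scaled FPKM + 0.5) was tested for genes with at least 1 FPKM in at least 5 libraries. A fold change on this scale understates the change of low genes. R 4.3.3 with limma 3.58.1 fitted all 15 libraries at once (lmFit, eBayes with trend), with Benjamini-Hochberg adjustment over the 13743 genes tested, and Python 3.11.15 with pandas 2.3.3, numpy 2.4.6 and scipy 1.17.1 gave the exact permutation tests of 9 within-library ratios. Calls follow the study's limits, which are 0.05 for the adjusted p and 1.5 (higher) or 0.667 (lower) for the fold. The script was tested on simulated data. Positions and lengths came from Ensembl release 115.

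All 10 members are named. From each further list up to 4 called genes with the smallest adjusted p are given in full, or 2 where none was called, others being named after their values were seen, and the 3 genes most alike let-363 and aak-2 are given. The members and lists were chosen with earlier results of these data known. The labels number the libraries of a group as biological replicates without saying whether they came from separate cultures, so p-values measure the spread between libraries, which may be technical. Alternatives covered the filter (none, or a mean of at least 5 FPKM), the scaling (quantile, median of ratios or none), the pseudocount (0.1 and 1), the libraries in the fit, blocks by replicate or code number, voom, the Wilcoxon test and leaving out each library, and, chosen after seeing the data, leaving out the 4 deepest libraries or 4 libraries apart for long genes. No sequence is printed, and survival and behaviour assays were not analysed here.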

Additional observations from a re-analysis of the deposited data

Results flagged for a closer look

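Of 39 groups of 5 libraries examined (the 10 genes and the 3 ratios in 3 groups), 6 held a library farther from the rest than Dixon's 95% limit of 0.710 allows, where chance alone gives about 1 in 20. In DMSO replicate 3, let-363 measured 30.3 FPKM (other DMSO libraries 22.8 to 24.5), daf-15 36.5 (31.5 to 32.9), rict-1 46.3 (39.8 to 41.3) and par-4 58.0 (47.0 to 48.7). In E. ulmoides replicate 5, aak-2 measured 11.8 FPKM (others 14.6 to 15.7), and in E. ulmoides replicate 1, par-4 measured 41.2 (others 50.5 to 54.2). These 3 libraries are among the 4 in which the median of genes over 4 kb lay farthest from its group mean, and the cause was not tested.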

How the results depend on the processing

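In C. chinensis against DMSO, the 0 members called became 1 with no further scaling or a mean FPKM of at least 5 (aak-2, 0.68 in both) and with no filter on low values or, chosen after seeing the data, without the 4 deepest libraries (aak-1, -0.59 and -0.62). The 9 members past adjusted p alone became 5 with no further scaling and 5 with a mean FPKM of at least 5, and rsks-1 reversed to 0.14 with no further scaling, 0.20 with quantile normalization and 0.13 with a mean FPKM of at least 5. Between the extracts, the 1 member called became 0 with quantile normalization and 0 with median-of-ratios scaling, and with no further scaling or a mean FPKM of at least 5 the called member was aak-2 in place of aak-1, and the 9 past adjusted p alone became 4 with no further scaling and 4 with quantile normalization. There daf-15 (0.064), rict-1 (0.092) and rsks-1 (0.11) reversed with no further scaling, rict-1 (0.043) and rsks-1 (0.13) with quantile normalization, and rict-1 (0.027) and rsks-1 (0.042) with a mean FPKM of at least 5. The cause of these changes was not tested beyond the shift of all genes given above.

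Leaving out each library in turn gave 0 to 1 members called between the extracts, and raga-1 to ragc-1 ratios of -0.10 to -0.060 (C. chinensis against DMSO, exact permutation p 0.0317 to 0.206), -0.077 to -0.038 (E. ulmoides against DMSO, p 0.0317 to 0.222) and -0.050 to -0.0056 (between the extracts, p 0.0476 to 0.889), where the p fell under 0.05 without C. chinensis replicate 3 or DMSO replicate 5. The aak-2 to aak-1 ratio stayed at 0.94 to 1.13 log2 units above DMSO.

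The labels do not say whether replicate numbers pair the libraries. They also carry a code number for each library, whose meaning is not given. Deviations of libraries with the same replicate number correlated at -0.25 to 0.06 (15 pairs), and with different replicate numbers at -0.24 to 0.28 (60 pairs). With the same code number they correlated at -0.15 to 0.04 (11 pairs). With 5 libraries in a group, such correlations cannot settle whether libraries were paired. With the replicate block, members called were 0, 0 and 1 and members past adjusted p alone 9, 0 and 8 in the 3 comparisons, all genes called with E. ulmoides against DMSO fell from 168 to 84, and the ratios aak-2 to aak-1 (1.03 and 1.04) and daf-15 to rict-1 (0.055, E. ulmoides against DMSO) had an exact paired p of 0.0625, the smallest that 5 pairs allow. The 168 genes called there, the base of the share given for that comparison, were 91 with median-of-ratios scaling, 45 with no further scaling, 41 with quantile normalization, 28 with a mean FPKM of at least 5, 8 with no filter, 32 without E. ulmoides replicate 1, 1 with the code number as a block and 0 without the 4 libraries apart for long genes. With that code block, members past adjusted p alone were 8, 0 and 10, and let-363 missed the threshold in C. chinensis against DMSO (-0.21, adjusted p = 0.0796). Every member had at least 1214 fragments in each library.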
